A study of Mus musculus with 4 samples.

Results

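Shelterin and the protein core of telomerase were examined through 10 genes given by name: the shelterin genes Terf1, Terf2, Terf2ip, Tinf2, Acd and Pot1a, and the box H/ACA ribonucleoprotein genes Dkc1, Nop10, Nhp2 and Gar1. They are 10 of the 53465 genes in the table, and were matched to their Ensembl identifiers by symbol in GENCODE M21. The 4 libraries, prepared by selection of polyadenylated RNA, carry the label MLE-12, an immortalized epithelial line of alveolar type 2 character. The line was derived from a lung tumour of mice carrying a viral large T antigen under a surfactant promoter. The control group (n = 2 libraries, replicates 1 and 2) was kept without 1-nitropyrene, and the treated group (n = 2 libraries, replicates 2 and 3) received 5 µM 1-nitropyrene, a nitrated polycyclic hydrocarbon of diesel exhaust, for 12 h. No genetic alteration was named for either group. Whether each library stands for its own culture is not given in the labels. The p-values of the main test rest on a library-to-library spread pooled over genes, not on the spread of each gene. That pooled spread may be technical.

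Shelterin coats the TTAGGG repeats at chromosome ends and keeps them from being handled as broken DNA. Terf1 and Terf2 encode the proteins that bind the double-stranded repeats, Tinf2 the bridge between them, Acd the factor that brings in telomerase, Pot1a the protein on the single-stranded overhang, and Terf2ip the partner of the Terf2 product. Telomerase RNA carries a box H/ACA domain, so that dyskerin (Dkc1) and its partners Nop10, Nhp2 and Gar1 stabilise it, and the same proteins guide pseudouridylation of ribosomal RNA. Telomere erosion in alveolar type 2 cells, and inherited variants of several of these genes, are known in pulmonary fibrosis, and senescence of epithelial cells is the subject named in the study's title.

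The box H/ACA genes stood far apart from each other in this table, with Dkc1 abundant and its partners at or near 0 counts. Their promoter sequences, from RefSeq on GRCm38.p6, are shown because they let this group be compared on something other than its counts. Each window runs from 250 bases before to 10 bases after the annotated start, 5′ to 3′, and capitals mark the ETS-type core CGGAAGT or its reverse complement ACTTCCG, searched on both strands and chosen after the sequences were seen. The windows are chrX:75095604-75095863 (plus strand) for Dkc1, chr2:112261676-112261935 (plus) for Nop10, chr11:51619523-51619782 (plus) for Nhp2 and chr3:129831387-129831646 (minus) for Gar1.
Dkc1: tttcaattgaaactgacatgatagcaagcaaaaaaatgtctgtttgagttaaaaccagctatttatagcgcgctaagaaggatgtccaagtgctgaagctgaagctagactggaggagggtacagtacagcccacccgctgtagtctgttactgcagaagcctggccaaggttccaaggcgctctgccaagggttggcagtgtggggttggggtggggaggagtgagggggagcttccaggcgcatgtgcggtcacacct
Nop10: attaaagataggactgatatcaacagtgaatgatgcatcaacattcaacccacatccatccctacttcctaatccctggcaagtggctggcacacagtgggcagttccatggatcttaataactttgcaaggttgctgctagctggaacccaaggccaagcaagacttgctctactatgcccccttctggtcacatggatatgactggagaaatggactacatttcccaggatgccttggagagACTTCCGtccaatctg
Nhp2: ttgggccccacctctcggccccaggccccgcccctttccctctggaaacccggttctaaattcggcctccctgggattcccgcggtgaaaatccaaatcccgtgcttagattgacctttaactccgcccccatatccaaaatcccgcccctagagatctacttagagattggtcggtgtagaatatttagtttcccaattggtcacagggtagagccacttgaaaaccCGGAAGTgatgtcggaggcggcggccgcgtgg
Gar1: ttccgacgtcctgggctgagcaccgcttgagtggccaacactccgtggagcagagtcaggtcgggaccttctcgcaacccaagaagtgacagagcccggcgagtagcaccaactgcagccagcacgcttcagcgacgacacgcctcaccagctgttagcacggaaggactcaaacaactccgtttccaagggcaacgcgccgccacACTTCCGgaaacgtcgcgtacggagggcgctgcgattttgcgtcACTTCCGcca
The ETS-type letters were present in Nop10, Nhp2 and Gar1 and not in the Dkc1 window. They began at base -6 in Nop10, at base -22 in Nhp2 and at bases -44 and 1 in Gar1, counted from the start site with no base 0. Of the 32851 promoter windows of this length, 5.46% held these letters, and of the 27025 genes with a window 6.17% did. Among the 9 of 10 members with a RefSeq promoter, 4 held them, the other being Tinf2. Because the letters were chosen from these sequences, that share cannot be read as an excess over all genes. The E-box CACGTG, a palindrome searched in the same windows, was in 0 of the 9 members, in 6.34% of all windows and in 7.22% of genes. These matches describe letters in a window and are not evidence of binding. A link between the letters and the counts was not tested, and Tinf2, which holds the letters, was not among the genes near 0 counts.

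The libraries held between 6908055 and 10773733 counts, and a count of 0 was read against a floor of 3 counts. That floor equals 0.278 to 0.434 CPM (counts scaled to a library size of 1000000) in a single library and 0.0855 CPM over all 4. Of 21942 protein-coding genes, 12111 (55.2%) had no count in any library. Epithelial and alveolar markers were at 0 for 9 of 12 genes, among them Krt8, Krt18, Cdh1, Epcam, Sftpb and Nkx2-1. Sftpc had 1 count. The keratin, adhesion and surfactant protein markers that define the labelled cell type thus had no or almost no counts in this table. Abca3, the lipid transporter of surfactant-storing lamellar bodies, was the exception, with 109 and 56 control counts and 83 and 69 counts with 1-nitropyrene, and made up nearly all of the list's sum of 10.4 and 8.11 CPM in controls and 9.43 and 8.02 CPM in treated libraries (914 of its 9374 exon bases are shared with D330041H03Rik on the opposite strand). Fibroblast markers (6 of 6 with a count, none at 0 throughout) summed to 6.40 (control replicate 1), 3.47 (control replicate 2), 1.48 (1-nitropyrene replicate 2) and 1.05 CPM (1-nitropyrene replicate 3), endothelial markers (Tek at 0) to at most 0.290 CPM and leukocyte markers (Cd68, Adgre1 and Cd3e at 0) to at most 0.290 CPM. Of the 6 fibroblast markers, 5 had too few counts to be tested and the 1 tested was not called. The difference between groups in their sum was not tested. Loci of ribosomal RNA took between 45.8% and 46.1% of control counts and between 44.3% and 44.5% of treated counts. Some genes that every cell uses were as low: of 76 ribosomal protein genes 21 had at most 3 counts in all 4 libraries together. A marker at 0 therefore cannot be read as absent from the cells. In bulk RNA, fewer cells of a type and less RNA per cell cannot be told apart either. The part of these marker levels in the results below was not tested.

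Of the 10 genes 4 had enough counts to be tested, namely Terf1, Terf2, Tinf2 and Dkc1. Levels are compared between genes as TMM-normalised CPM (scaled to a common library size) per kilobase of annotated exon. On that scale Dkc1 was highest, with 63.1 and 62.9 without and 81.1 and 77.5 with 1-nitropyrene. Tinf2 followed with 3.63 and 4.06 against 3.21 and 2.95. Terf2 lay at 2.52 and 2.15 against 1.601 and 1.82, and Terf1 at 0.499 and 0.404 against 0.524 and 0.587. The ranges of these 4 genes over the 4 libraries did not overlap, so their order was the same in each library. It is an order of reads credited to each gene in this table, not of transcripts in the cells, and the ranks below are read likewise. Dkc1 ranked 280 of 6738 tested protein-coding genes by mean level per kilobase, Tinf2 ranked 3432, Terf2 4237 and Terf1 5933.

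**Figure D1:**
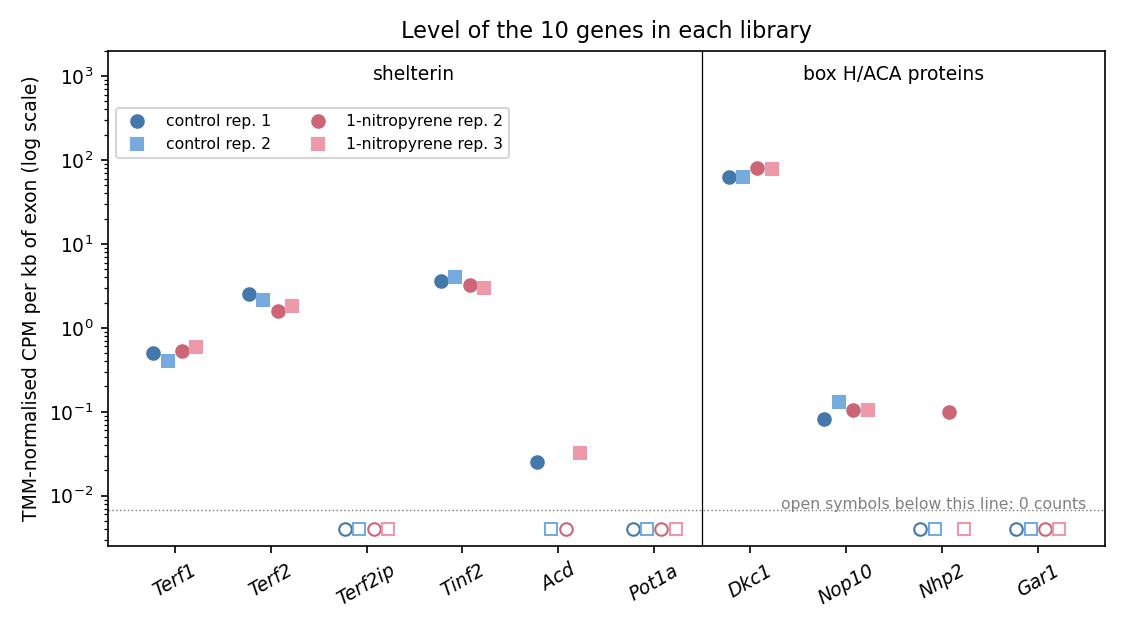
TMM-normalised CPM per kilobase of exon (log axis) of the 10 genes, with 1 symbol per library and open symbols for a count of 0. Dkc1 sits between 62.9 and 81.1, Tinf2, Terf2 and Terf1 between 0.404 and 4.06, and the remaining 6 genes at no more than 0.129.

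The other 6 genes had at most 4 counts each in all 4 libraries together. In shelterin, Terf2ip and Pot1a had 0 counts in every library, and Acd had 1 count in control replicate 1, 1 in 1-nitropyrene replicate 3 and 0 in the others. Pot1b, the close copy of Pot1a that mice carry in addition, had 0 counts too, so no reads were credited to either copy. Acd shares 1208 of its 3625 exon bases with Carmil2 on the opposite strand, and the part of this overlap in its low count was not tested. Among the box H/ACA genes, Nop10 had 1 count in each library, Nhp2 had 1 count in 1-nitropyrene replicate 2 and 0 in the others, and Gar1 had 0 counts throughout. No order can be read among these 6 genes.

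Dyskerin works in a complex that also contains the Nop10, Nhp2 and Gar1 proteins, and the counts of the 4 genes differed by orders of magnitude here. With 10260 counts in all, Dkc1 was credited with at least 1422-fold more reads per kilobase than Gar1, set against a floor of 3 counts over the 4 libraries. The same ratio to Nop10 was 690.3 (exact 95% counting interval 270 to 2534). These intervals reflect counting error alone, because reads lacking molecular identifiers are not independent molecules. A 0 is given here as the table lists it, beside the 55.2% of protein-coding genes at 0. Counts were as unequal among genes that every cell uses: of 76 ribosomal protein genes 21 had at most 3 counts in all 4 libraries together, Rps6 with 2 and Rpl34 with 1 among them, while Rpl19 had 24564. The 13 mitochondrial mRNAs summed to 947 counts, and 3 of them had none. The ratios above therefore describe reads credited to each gene in this table, not transcript ratios in the cells. Whether the reads suited the mouse reference, how they were assigned to genes, and whether the transcripts at 0 were absent from the cells were not tested.

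The comparison of 1-nitropyrene with control asked which of these transcripts differed in level after 12 h. Among all tested genes, 1024 were higher and 870 lower by edgeR's quasi-likelihood test at a Benjamini-Hochberg adjusted p under 0.05, which is 24.5% of the 7738 genes tested (13.2% higher and 11.2% lower). Of the 4 tested members 1 was called, Dkc1, and it rose. That share is close to the background share and says nothing particular about these genes. The 4 genes were tested because their counts passed the filter on low counts, and they do not stand for all 10.

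Dkc1 (ENSMUSG00000031403, GRCm38 chromosome X, 75095854 to 75109777, plus strand), the pseudouridine synthase of the box H/ACA particle, gave 2829 reads in control replicate 1 and 1810 in control replicate 2. The treated libraries gave 2905 (replicate 2) and 2716 (replicate 3). TMM-normalised CPM were 260.2 and 259.4 without and 334 and 319 with 1-nitropyrene. Both treated libraries lay above both controls, by more than the spread within either group. Dkc1 rose from 259.8 ± 0.567 to 327 ± 10.6 CPM (SD, n = 2 libraries each), a ratio of 1.26 (95% interval 1.19 to 1.33). On the log2 scale the difference was 0.33 (SE 0.04), with an edgeR adjusted p of 1.57e-14. A larger change in either direction was fitted for 30.3% of the tested genes. DESeq2, which placed 9.97% of the genes it could adjust higher and 6.15% lower, called Dkc1 as well. The call was kept under all 17 alternative settings, with log2 fold changes between 0.30 and 0.36, and the value was 0.33 without the ribosomal RNA loci. Dkc1 shares 45 of its 4121 exon bases with Mpp1 on the opposite strand, which had a fitted log2 fold change of -0.22 (SE 0.13) and an edgeR adjusted p of 0.236.

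Terf2 (chromosome 8, 107069400 to 107096547, minus strand), which binds double-stranded telomeric repeats and holds the chromosome end in its protected form, had 126 and 69 control counts and 64 and 71 counts with 1-nitropyrene. Normalised, the controls stood at 11.6 and 9.89 CPM and the treated libraries at 7.36 and 8.34 CPM, so both treated values lay below both controls. The group means were 10.7 ± 1.20 and 7.85 ± 0.695 CPM (n = 2), a ratio of 0.719 (95% interval 0.546 to 0.947). The log2 fold change of -0.48 (SE 0.20) did not pass the threshold (adjusted p = 0.0708, edgeR). Over the alternative settings its adjusted p ranged from 0.0510 to 0.492, so no setting called it. No gene on the opposite strand overlaps its exons.

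Tinf2 (chromosome 14, 55674689 to 55681820, minus strand), the bridge between the double-strand binding proteins and the Acd product, had 195 and 140 control counts and 138 and 124 with 1-nitropyrene. Normalised, the controls stood at 17.9 and 20.1 CPM and the treated libraries at 15.9 and 14.6 CPM, again with both treated values below both controls. The means of 19.0 ± 1.51 and 15.2 ± 0.919 CPM (n = 2) gave a ratio of 0.811 (95% interval 0.662 to 0.993). Its log2 difference of -0.30 (SE 0.15) missed the threshold as well (adjusted p = 0.129, edgeR). The adjusted p ranged from 0.0822 to 0.407 over the alternatives. Tinf2 shares 1540 of its 4938 exon bases with Gmpr2 on the opposite strand. Its counts may include reads of Gmpr2 or lack reads from the shared bases, and its level per kilobase is limited in the same way. Whether the counting used strand is not given in the sources used here. Gmpr2 itself had 138 and 87 control counts and 110 and 82 with 1-nitropyrene (log2 difference -0.18, SE 0.18, edgeR adjusted p = 0.525).

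Terf1 (chromosome 1, 15805646 to 15844052, plus strand), the other double-strand binding protein, a regulator of telomere length, was near the limit of the depth, with 25 and 13 control counts and 21 and 23 with 1-nitropyrene. Normalised, the controls stood at 2.30 and 1.86 CPM and the treated libraries at 2.42 and 2.70, which did not overlap. The ratio was 1.20 with a 95% interval of 0.696 to 2.07 (log2 difference 0.26, SE 0.40, edgeR adjusted p = 0.692), so a change of 2-fold upward would still lie inside the interval. The absence of overlap between groups, seen in all 4 tested members, was found in 59.2% of all tested genes and marks nothing out.

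**Figure D2:**
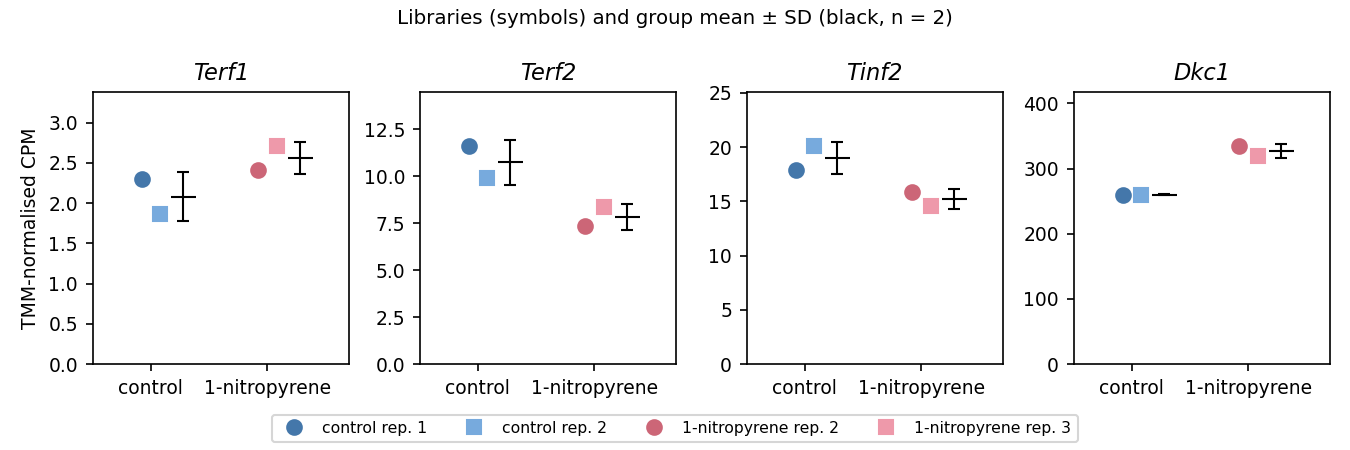
TMM-normalised CPM of Terf1, Terf2, Tinf2 and Dkc1 in the 2 control and 2 1-nitropyrene libraries (symbols), with the group mean ± SD in black and each axis starting at 0. Dkc1 lies at 259.4 and 260.2 without and at 319 and 334 with 1-nitropyrene, and Terf2 and Tinf2 lie lower in both treated libraries than in both controls without passing the test.

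Reads credited to the 2 double-strand binding genes can be compared within each library, though not as transcript ratios in the cells. Per kilobase, Terf2 exceeded Terf1 by 5.05 times in control replicate 1 and 5.32 times in control replicate 2. With 1-nitropyrene it did so by 3.05 times in replicate 2 and 3.09 times in replicate 3. Counting error alone spans 3.27 to 8.10 in control replicate 1 and 1.91 to 5.19 in 1-nitropyrene replicate 3 (exact 95% intervals), so the intervals overlap, and the difference between groups was not tested. Terf2 was credited with more reads per kilobase than Terf1 in all 4 libraries, with the lowest bound of the 4 intervals at 1.84. These intervals do not cover differences in how reads were assigned to the genes.

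Of 16 genes that make and mature the telomerase particle, 10 were tested and 0 were called, beside 24.5% of all tested genes, with 1 higher and 1 lower at an unadjusted p under 0.05 in edgeR, and DESeq2 and limma-voom also called 0. Tert, the reverse transcriptase, Terc, the telomerase RNA, and Naf1, which assembles box H/ACA particles, had 0 counts in all libraries. Wrap53, which directs the particle to Cajal bodies, had 0 and 4 control counts and 5 and 5 with 1-nitropyrene, and was not tested. The library preparation selected polyadenylated RNA and mature Terc is not polyadenylated, so its 0 cannot be read as absence of the RNA. Ribosomal RNA loci still took between 44.3% and 46.1% of counts, and why Terc had 0 counts was not tested. The tested genes of this list had ratios of 1-nitropyrene to control between 0.763 and 1.21.

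Among 28 genes of telomere replication, end processing and chromatin, 16 were tested and 1 rose, beside 13.2% higher and 24.5% called in either direction among all tested genes. Atrx, a chromatin remodeller that deposits histone variants at telomeres, had control values of 79.7 and 71.9 CPM and treated values of 88.2 and 86.8 CPM with 1-nitropyrene, which is 0.20 higher on the log2 scale (SE 0.07, adjusted p = 0.0215, edgeR). Its call ended without control replicate 2 (adjusted p = 0.304), without 1-nitropyrene replicate 2 (0.0970) or 3 (0.0501), in DESeq2 (0.202), without a filter on low counts (0.0855) and without scaling factors (0.0611). Stn1 and Ten1, subunits of the CST complex that fills in the telomeric C-strand, had 0 counts in all libraries, as did Ercc1, Fbxo4 and Pot1b. The median log2 fold change of the 16 tested genes was -0.06, beside -0.00 over all tested genes.

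**Figure D3:**
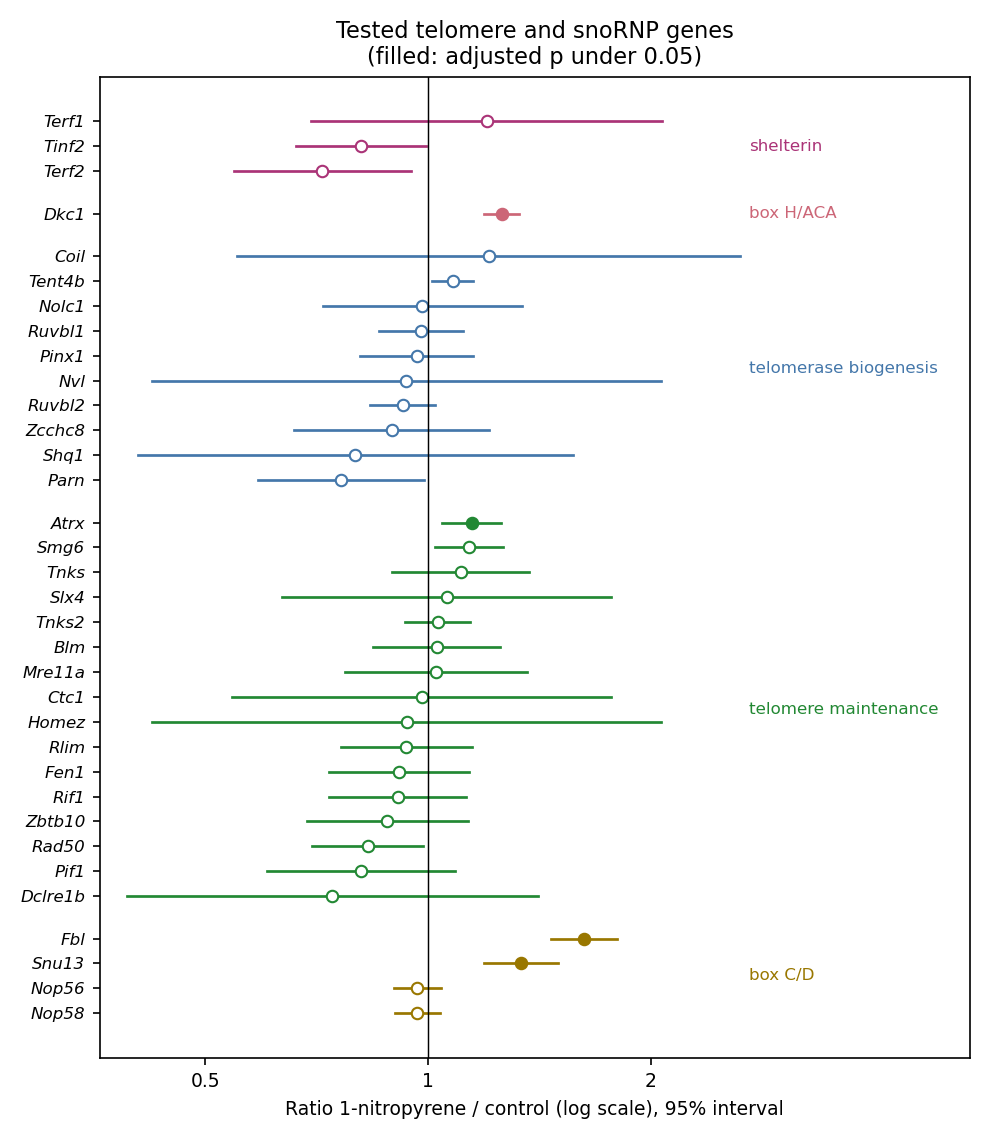
Ratio of 1-nitropyrene to control (log axis) with its 95% interval for every tested gene of shelterin, the box H/ACA proteins and the 3 other lists, with filled symbols at an adjusted p under 0.05. Dkc1, Atrx, Fbl and Snu13 are filled and lie above 1, and no gene below 1 is filled.

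The box C/D proteins form the sister class of small nucleolar particles, which methylate ribosomal RNA. Of 9 genes 4 were tested, and 2 rose while 0 fell, beside 13.2% higher and 11.2% lower among all tested genes; with 4 genes, nothing particular to the list can be read from this. Fibrillarin (Fbl), the methyltransferase, had control values of 51.4 and 53.0 CPM and treated values of 87.6 and 81.6 CPM, a ratio of 1.62 (95% interval 1.47 to 1.80, adjusted p = 1.20e-18, edgeR). Snu13, which binds the kink-turn of the guide RNA and also belongs to the spliceosome, was at 49.0 and 39.3 CPM against 63.3 and 57.1 CPM, a ratio of 1.34 (1.19 to 1.50, adjusted p = 1.20e-05, edgeR). The size of this change depended on the control: the log2 fold change was 0.29 without control replicate 2 and 0.62 without control replicate 1. The scaffold proteins did not pass the test: Nop56 had a ratio of 0.967 (0.898 to 1.04) and Nop58 a ratio of 0.967 (0.901 to 1.04). Dkc1 and Fbl, which encode the enzymes of these particles, thus rose, and so did Snu13. The intervals of Dkc1, Fbl and Snu13 lie above those of Nop56 and Nop58, though differences between genes were not tested. The median log2 fold change of the 4 tested box C/D genes was 0.19. Znhit3, Znhit6 and Rpap3, which help assemble the particles, had 0 counts in all libraries.

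**Figure D4:**
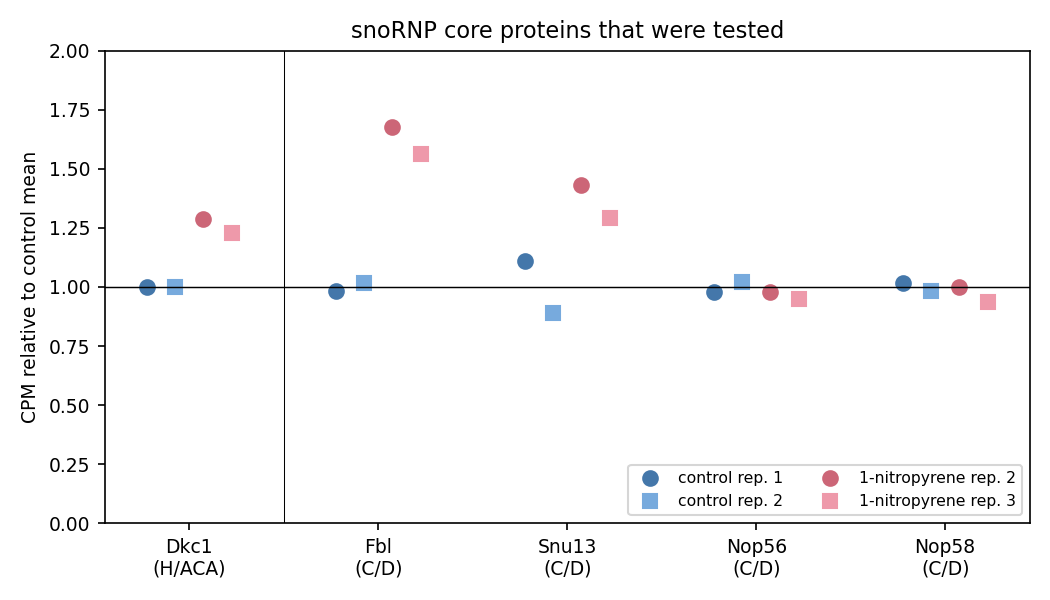
CPM of Dkc1 and of the 4 tested box C/D genes in each library, relative to the mean of the controls (axis from 0). Treated libraries lie at 1.23 and 1.29 for Dkc1, 1.56 and 1.68 for Fbl, 1.29 and 1.43 for Snu13, and between 0.937 and 1.00 for Nop56 and Nop58.

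The genes whose pattern was most like that of Dkc1 were sought among the 3537 tested genes whose mean reached 20 CPM. Likeness was the root mean square difference of centred log2 CPM over the 4 libraries. The nearest were Bclaf1, a nuclear RNA-associated factor (0.00698), Nudcd1 (0.0110) and Cachd1 (0.0128), with log2 fold changes of 0.34, 0.34 and 0.36. With 4 libraries such likeness reflects little more than a similar fold change.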

How the data were processed

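The authors deposited raw, unnormalized counts for each Ensembl gene, with 1 column per library. HISAT2 2.1.0, featureCounts 1.6.3, DESeq2 and the build GRCm38 (mm10) appear in the submitters' processing notes, with no roles. Annotation release, strand setting and handling of multi-mapped reads: not given in the sources used here. Of 53465 identifiers 53360 matched GENCODE M21 (GRCm38), which gave symbols, positions and exon lengths.

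Sample titles gave the groups and the replicate numbers. Replicates differed by more than sampling noise (chi-square per degree of freedom 1.62 between controls and 2.05 between treated libraries). Counts were filtered with filterByExpr (7738 genes), scaled with TMM factors (0.989 to 1.01) and tested with edgeR 4.0.16 in R 4.3.3 (quasi-likelihood, legacy set to FALSE, intercept and treatment, two-sided). All genes shared 1 dispersion (0.000546), which the quasi-likelihood test scaled by a spread pooled over genes. The p-values therefore do not reflect the replicate spread of a single gene. SE is the absolute log2 fold change over the square root of F, and intervals are at 95%. Alternatives covered scaling, filters, limma-voom (limma 3.58.1), DESeq2 1.42.0 and each library left out. The 10 members and the other lists were chosen with earlier results of these data known. Named genes are the members, called or all-zero genes of the lists, Tert, Terc and Pot1b, and the 3 genes most like the member with the smallest p. Wrap53, Abca3, the ribosomal protein genes, the overlapping neighbours and uncalled box C/D genes were named after their values were seen. Ribosomal RNA loci are the rRNA gene types and Gm42418.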

Additional observations from a re-analysis of the deposited data

How the results depend on the processing

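No paired analysis was possible because the groups share 1 replicate number. Of the 17 alternatives, all kept 1 called member, 0 called telomerase biogenesis genes and 2 called box C/D genes. DESeq2 called 836 genes in all against 1894, and leaving out 1 library gave 1201 to 1502, lowest without control replicate 1; a library left alone in its arm is then taken to vary as the other arm does. The telomere maintenance list had 1 called gene, Atrx, and 0 without scaling factors, without a filter on low counts, in DESeq2 and at an adjusted p under 0.01, and 0 to 1 with 1 library left out. Without 1-nitropyrene replicate 3 the called gene was another, Rad50, which was lower (log2 fold change -0.53, SE 0.16, edgeR adjusted p = 0.00881), against -0.27 and 0.105 with all libraries; Rad50 was named after its values were seen. The causes were not tested. Dkc1, Fbl and Snu13 kept their calls under all 17, with adjusted p of at most 5.00e-05, 2.24e-05 and 0.0285. Terf2 kept its sign in the 16 settings that could test it (log2 fold change -0.57 to -0.33), Tinf2 in 17 (-0.40 to -0.24) and Terf1 in 15 (0.15 to 0.45). At a mean of at least 10 CPM Terf1 and Terf2 were not tested, and DESeq2 gave Terf1 no adjusted p. Terf1 had 82 counts in all, which limits its precision; why 6 of the 10 genes had too few counts to be tested was not tested.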

Other observations

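The exon lengths of the 10 genes overlapped between those tested and those not tested. The 4 tested genes had between 4121 and 4938 exon bases (median 4602.5) and the 6 others between 1109 and 8669 (median 2669.5). Terf2ip (4958) and Pot1a (8669) were among the longest and at 0 counts. Over the whole table, the 6738 tested protein-coding genes had a median of 5262 exon bases and the 12111 without a count a median of 2569.

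Terf2ip had 0 counts while Gm6793, a predicted gene on the opposite strand inside the same locus that shares 108 exon bases with it, drew 251 and 200 reads without 1-nitropyrene and 176 and 167 with it. Normalised, Gm6793 stood at 23.1 and 28.7 CPM in controls and at 20.2 and 19.6 CPM in treated libraries, and it was called lower (log2 fold change -0.35, SE 0.13, edgeR adjusted p = 0.0342). Gm6793 was looked at after its values were seen.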
